A study of Mus musculus with 2 samples.

Results

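C/EBP transcription factors were examined as 4 genes, Cebpa, Cebpb, Cebpd and Cebpg, of the 55573 genes listed for mouse mesenteric artery. The genes were taken by matching their symbols to the Ensembl identifiers in the read count and FPKM files, and all 4 had reads in both libraries. RNA-seq was done on arteries of wild-type C57BL/6 mice, 10 weeks old, which the methods give as male. Control arteries in 5 mM K+ solution gave 1 library, and arteries in depolarizing 60 mM K+ solution gave the other. The labels give 60 min for either solution, and tissue of 2 mice was pooled per library. According to the methods, all solutions held tetrodotoxin against nerve activity. The supplementary methods describe control tissue as the distal side of ligated arteries, taken after an incubation without perfusion. The rest of the tissue was then perfused with 60 mM K+ by a pump. Segment, flow and time in solution may thus differ between the libraries together with K+ and cannot be told apart from it. As each condition had a single library, differences could not be checked against replicates and are given without p-values.

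C/EBP proteins (CCAAT/enhancer-binding proteins) are basic leucine zipper (bZIP) factors: a basic region contacts DNA, and the zipper pairs each protein with another C/EBP or with a different bZIP protein. C/EBPβ and C/EBPδ are known as rapidly induced factors of the acute-phase and inflammatory response, downstream of interleukin-6, STAT3, NF-kB and, for Cebpb, CREB. C/EBPα drives terminal differentiation of adipocytes, hepatocytes and myeloid cells, and C/EBPγ lacks a strong activation domain and pairs with other C/EBP proteins and with ATF4. The study asked which genes depolarization induces through Ca2+ signals and CREB in vascular smooth muscle.

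The libraries held 10480918 reads (5 mM K+) and 11289598 reads (60 mM K+) on genes. The libraries were scaled with TMM, the trimmed mean method of edgeR, and log2(fold-change) is the scaled 60 mM K+ value over the 5 mM K+ value. Each has a 95% exact (Clopper-Pearson) interval, which covers counting error only. Over the 14829 tested genes (at least 10 reads when the libraries are added up), the median log2(fold-change) was -0.0047, and scaling by total counts instead lowers every value by 0.21. Smooth muscle markers were high in both libraries, with summed levels of 38647 and 42366 CPM, reads scaled to library size. The 7 endothelial markers summed to 3272 and 4476 CPM, the 6 fibroblast markers to 4038 and 3714 CPM, and the 14 macrophage markers to 67.4 and 64.8 CPM.

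Cebpd and Cebpb were the abundant C/EBP genes of this artery, and Cebpg and Cebpa were expressed at far lower levels. Levels are compared per gene length, as the deposited FPKM (fragments scaled by gene length and by total counts). In 5 mM K+, the FPKM level of Cebpd was 128 (counting interval 124 to 133) and that of Cebpb was 119.8 (114 to 125). Cebpg had an FPKM level of 22.6 (20.5 to 24.7), and Cebpa had 2.91 (2.28 to 3.66). The order Cebpd, Cebpb, Cebpg, Cebpa was the same in 60 mM K+, at 203, 201, 18.6 and 2.66 FPKM. The intervals of Cebpd and Cebpb overlapped in both libraries, whereas the steps down to Cebpg and to Cebpa were far wider than the intervals. Cebpd exceeded 94.4% of the tested genes in FPKM level in 5 mM K+ and 96.5% in 60 mM K+. Cebpa exceeded 28.0% and 29.7%. Within the listed bZIP genes, Cebpd ranked 13 and Cebpb 14 of 52 by FPKM level in 5 mM K+, while Cebpg ranked 29 and Cebpa 38.

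**Figure D1:**
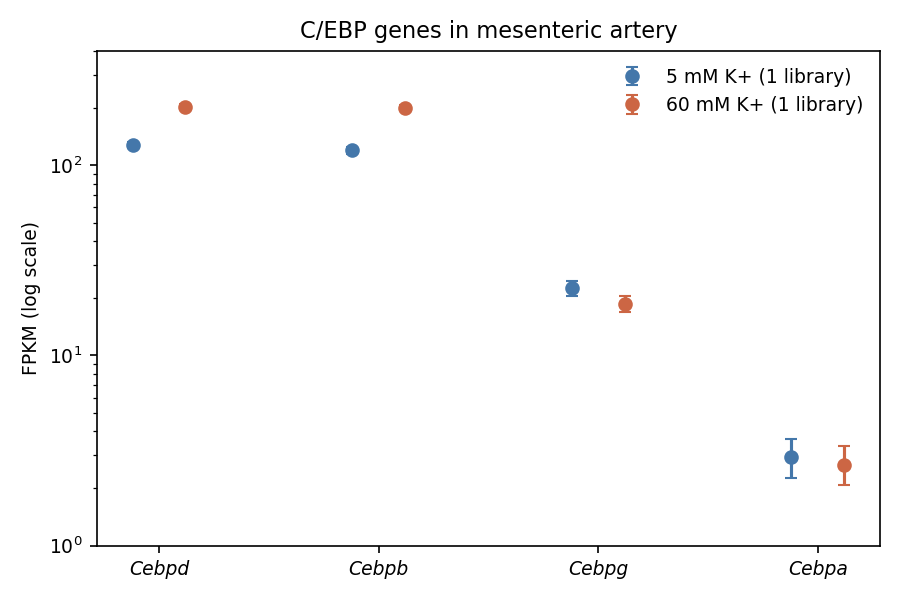
FPKM levels on a log axis of Cebpd, Cebpb, Cebpg and Cebpa in the 5 mM K+ and the 60 mM K+ library, 1 library each. Bars are 95% exact Poisson intervals of the read counts and are smaller than the points for Cebpd and Cebpb, which lie higher in 60 mM K+, while the intervals of Cebpa overlap between the libraries.

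Depolarized arteries held more Cebpb and Cebpd RNA than control arteries, by nearly the same factor. With TMM scaling, Cebpa and Cebpg showed no difference beyond counting error. Cebpb, which encodes the C/EBPβ activator, was counted 1889 times in control and 3411 times in depolarized arteries. This is a 1.94-fold difference, with log2(fold-change) at 0.95 and counting interval bounds of 0.87 and 1.04. Cebpd, which encodes C/EBPδ, was counted 2807 and 4792 times, a 1.83-fold difference with log2(fold-change) at 0.87 (0.81 to 0.94). Cebpg went from 451 to 401 reads, with log2(fold-change) at -0.07 (-0.27 to 0.13). Cebpa, the adipocyte and hepatocyte regulator, had 73 and 72 reads. Its log2(fold-change) lay at 0.08 (-0.41 to 0.57), a 1.06-fold difference with a counting interval of 0.753 to 1.49. In whole arteries, a change in the number of cells of a type and a change in RNA per cell cannot be told apart.

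None of the 4 genes passed the fold limit of the study, an absolute log2(fold-change) above 1: the count was 0 of 4 in either direction, where 5.54% of all tested genes lay above 1 and 5.86% lay below -1. The counting interval of Cebpb reached above the limit and that of Cebpd did not. An interval wholly above 0 was found for 2 of 4 genes, Cebpb and Cebpd, compared with 25% of all tested genes, and wholly below 0 for 0 of 4, compared with 20.3%. A larger log2(fold-change) than that of Cebpb was seen in 5.98% of tested genes, and than that of Cebpd in 6.95%. Among the 6549 genes with at least 500 reads, where counting error is small, these shares were 3.73% and 4.29%. Counting error is not the spread between animals. With an assumed coefficient of variation between libraries of 0.2, the interval of Cebpb would widen to 0.15 to 1.76 and that of Cebpd to 0.07 to 1.68, and with 0.4 both would include 0, with lower ends of -0.65 and -0.73.

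Genomic positions are given on mm9 (NCBIM37), the build named in the methods, from GENCODE vM1. Cebpb (ENSMUSG00000056501) lies on chromosome 2 from 167514415 to 167515918 on the plus strand as 1 exon of 1504 bases, the same length as the FPKM values imply. The minus-strand gene Tmem189 overlaps the first part of Cebpb, has its 5′ end at 167515322 within Cebpb, and shares 312 of the exon bases of Cebpb. The library kit and counting are not stated to use strand, so the assignment of reads in that stretch is uncertain; Tmem189 had 356 and 406 reads. Cebpd (ENSMUSG00000071637) lies on chromosome 16 from 15887379 to 15888559. GENCODE vM1 annotates it as a pseudogene of 1180 exon bases, whereas its FPKM values imply a length of 2088 bases, so the reads were counted on another gene model. Cebpg (ENSMUSG00000056216, chromosome 7, 35831441 to 35841522, minus strand) and Cebpa (ENSMUSG00000034957, chromosome 7, 35904312 to 35906945, plus strand, 1 exon) are neighbors that are 62789 bases apart. The FPKM values imply 1908 bases for Cebpg and 2394 bases for Cebpa.

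The RefSeq promoter table (GRCm38.p6) held 3 of the 4 genes, Cebpa, Cebpb and Cebpg, and each sequence matched mm9 exactly at 1 place. The 250 bases before the start are shown, 5′ to 3′ on the strand of the gene, because CREB is the factor the study followed. Cebpb differed between the libraries, and Cebpa and Cebpg did not differ beyond counting error with TMM scaling. Cebpd, which differed by nearly the same factor as Cebpb, had no entry, so its promoter was not searched. Whether the motifs go with the differences was not tested. The window of Cebpb is chr2:167514165-167514414 (plus strand, within the Tmem189 gene and outside its exons), that of Cebpg is chr7:35841586-35841835 (minus strand) and that of Cebpa is chr7:35904062-35904311 (plus strand). Capitals mark the short CRE motif TGACG or its reverse complement CGTCA and an NF-kB type motif (GGGA, then any 4 bases, then CC) on either strand.
Cebpb: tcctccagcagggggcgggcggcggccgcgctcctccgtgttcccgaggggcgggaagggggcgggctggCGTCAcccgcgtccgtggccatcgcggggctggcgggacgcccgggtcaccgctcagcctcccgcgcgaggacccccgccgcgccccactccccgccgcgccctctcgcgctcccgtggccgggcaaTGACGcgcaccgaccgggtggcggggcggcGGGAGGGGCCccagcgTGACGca
Cebpg: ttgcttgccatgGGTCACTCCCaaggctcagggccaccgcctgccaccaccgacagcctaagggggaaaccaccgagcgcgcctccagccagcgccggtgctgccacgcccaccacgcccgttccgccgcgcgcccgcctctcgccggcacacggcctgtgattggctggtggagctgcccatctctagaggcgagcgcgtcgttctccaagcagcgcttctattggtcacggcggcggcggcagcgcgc
Cebpa: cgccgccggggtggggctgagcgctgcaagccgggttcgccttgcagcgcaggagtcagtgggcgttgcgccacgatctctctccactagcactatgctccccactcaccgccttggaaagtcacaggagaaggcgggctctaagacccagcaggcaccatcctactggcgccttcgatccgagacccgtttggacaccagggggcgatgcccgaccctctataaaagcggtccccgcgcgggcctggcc

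The Cebpb window holds 3 short CRE motifs, at bases -180 to -176, -53 to -49 and -7 to -3 counted from the start, and 1 NF-kB type match at -23 to -14. Neither Cebpa nor Cebpg holds a short CRE motif in the 300-base window of the table, which runs to 50 bases after the start. Of 32851 promoters in the table, 20.8% hold at least 1 short CRE motif and 1.03% hold 3 or more. Cebpg holds 1 NF-kB type match, at -238 to -229, and 20.7% of promoters hold such a match. The full CRE (TGACGTCA, in 1.79% of promoters), which contains the short motif, had 0 matches on either strand in the 3 windows. The C/EBP type motif TTGCNNAA (10.8%) and the STAT type motif TTCNNNGAA (8.30%) also had 0 matches on either strand. For the serum response element, only 1 fixed sequence of the CArG type (0.0639%) was searched on both strands, with 0 matches. Other CArG sequences were not searched, so their absence from the 3 windows is not shown. The upstream window of Cebpb was also the richest in G and C, at 81.6%, with 70.8% for Cebpg and 66.4% for Cebpa. A match describes letters in the sequence and does not show binding.

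Ratios between genes within a library do not depend on library scaling, and all 6 pairs of C/EBP genes were compared in this way. The log2(fold-change) of Cebpb exceeded that of Cebpg by 1.02 (exact counting interval 0.81 to 1.24) and that of Cebpa by 0.87 (0.38 to 1.37). For Cebpd the differences were 0.94 over Cebpg (0.73 to 1.15) and 0.79 over Cebpa (0.30 to 1.29). Thus 4 of 6 pairs differed beyond counting error. Cebpb and Cebpd differed by 0.08 (-0.03 to 0.19), which leaves room for a ratio between 0.983 and 1.14, and Cebpa and Cebpg differed by 0.15 (-0.38 to 0.68). There were 4.19 reads on Cebpb for each read on Cebpg in 5 mM K+ and 8.51 in 60 mM K+. In FPKM levels summed over the 4 genes, 274 in 5 mM K+ and 425 in 60 mM K+, Cebpg made up 8.24% and 4.38%, Cebpb 43.8% and 47.2%, Cebpd 46.9% and 47.8%, and Cebpa 1.06% and 0.626%.

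The sizes of these differences moved with scaling and with base composition. Cebpb and Cebpd stayed above 0 under every scaling tried, from 0.46 to 0.95 for Cebpb and from 0.38 to 0.87 for Cebpd. The lowest values came from scaling on Ppia and Hprt, qPCR reference genes that were themselves at 0.51 and 0.47 with TMM. The study chose these 2 genes for their like expression in both K+ solutions. Cebpa turned from 0.08 to -0.13 with total counts. Cebpg fell from -0.07 to -0.28 with total counts and to -0.56 on Ppia and Hprt. Both values lay below its TMM counting interval of -0.27 to 0.13, and the interval shifted with them lay below 0. Whether Cebpg was lower in 60 mM K+ thus depends on the scaling. Genes rich in G and C tended to have higher log2(fold-change) throughout the libraries. The median was -0.09 for the 2546 tested genes with 40% to 45% G and C in their exons, the range of Cebpg (43.6%), 0.17 for the 525 genes with 60% to 65%, the range of Cebpa (62.6%) and Cebpd (63.0%), and 0.49 for the 54 genes with 65% to 70%, the range of Cebpb (67.2%). With this trend removed, Cebpb was at 0.64, Cebpd at 0.65, Cebpg at 0.01 and Cebpa at -0.13. The trend was a smooth curve over 13674 genes, of which only 54 lie in the range of Cebpb. It took less from Cebpb than the median of that range, 0.49, so the value of 0.64 may still hold part of the trend. Cebpa and Cebpd have nearly the same base composition, and their difference was 0.78 with the trend removed, compared with 0.79. Base composition was taken from GENCODE vM1 exons, which for Cebpd, Cebpg and Cebpa differ in length from the models the reads were counted on, and the correction rests on them. In the 60% to 65% range, 10.7% of genes had a larger log2(fold-change) than Cebpd, and in the 65% to 70% range 14 of 54 genes (25.9%) had a larger one than Cebpb.

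**Figure D2:**
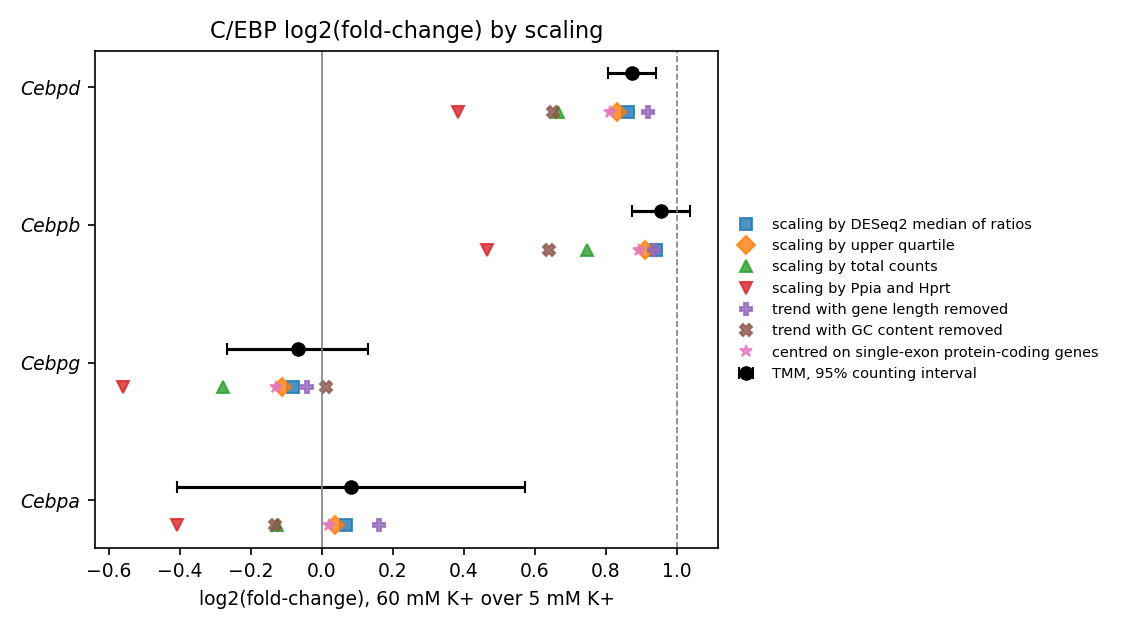
The x axis is log2(fold-change) of 60 mM K+ over 5 mM K+ for the 4 C/EBP genes; black points are TMM values with 95% counting intervals, and colored symbols are other scalings, corrections for trends with gene length or G and C, and centering on single-exon genes. Every symbol of Cebpd and Cebpb lies between 0 and 1, whereas those of Cebpg run from -0.56 to 0.01 and those of Cebpa from -0.41 to 0.16.

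Of the other genes that carry a C/EBP name, Ddit3 was higher in 60 mM K+ and Cebpz was not. Ddit3, which encodes CHOP, a C/EBP relative that blocks DNA binding by its partners at classic sites, went from 211 to 487 reads, with log2(fold-change) at 1.31 (1.07 to 1.55). Cebpz, which is named for CCAAT binding but has no bZIP domain, had 343 and 350 reads, with log2(fold-change) at 0.13 (-0.09 to 0.35). Cebpe, the granulocyte member, had 0 reads in both libraries, which allows a level of up to 0.266 CPM in 5 mM K+ and 0.286 CPM in 60 mM K+ at a floor of 3 counts. Of 8 neutrophil markers, which summed to 0.621 and 1.90 CPM, S100a9, Mpo, Ngp, Camp and Elane had 0 reads in both libraries. Ltf, the marker with enough reads to test, had 5 and 19, with log2(fold-change) at 2.03 (0.56 to 3.80).

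Among 52 listed bZIP genes, 47 passed the minimum of 10 reads, and 6 lay above a log2(fold-change) of 1 and 2 lay below -1, beside 5.54% and 5.86% of all tested genes. Their median was 0.41, compared with -0.0047 for all tested genes, and it was -0.08 when scaled on Ppia and Hprt, which lowers every gene by 0.49 and leaves the gap to all genes as it was. With at least 50 reads there were 41 genes, in which Cebpb took place 9, Cebpd place 10, Cebpa place 27 and Cebpg place 29 by log2(fold-change). The genes past the limit with at least 50 reads were Fosl1 at 1.82, Nfil3 at 1.51, Ddit3, Atf4 at 1.24, Jund at 1.07 and, in the other direction, Dbp at -1.10. Fos, a subunit of AP-1, was the most abundant, with FPKM levels of 2681 and 3099 and a log2(fold-change) of 0.42. Of the other 40 genes, those nearest to Cebpb in log2(fold-change) were Maff (0.96, 3215 and 5828 reads) and Mafk (0.97, 3602 and 6571 reads), which encode small Maf proteins. Nearest to Cebpd were Nfe2l2 at 0.84 and Jun at 0.83, nearest to Cebpa were Creb3 at 0.11 and Creb5 at 0.12, and nearest to Cebpg were Atf1 at -0.08 and Hlf at -0.15. With a single pair of libraries, likeness is the distance between these values and nothing more.

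**Figure D3:**
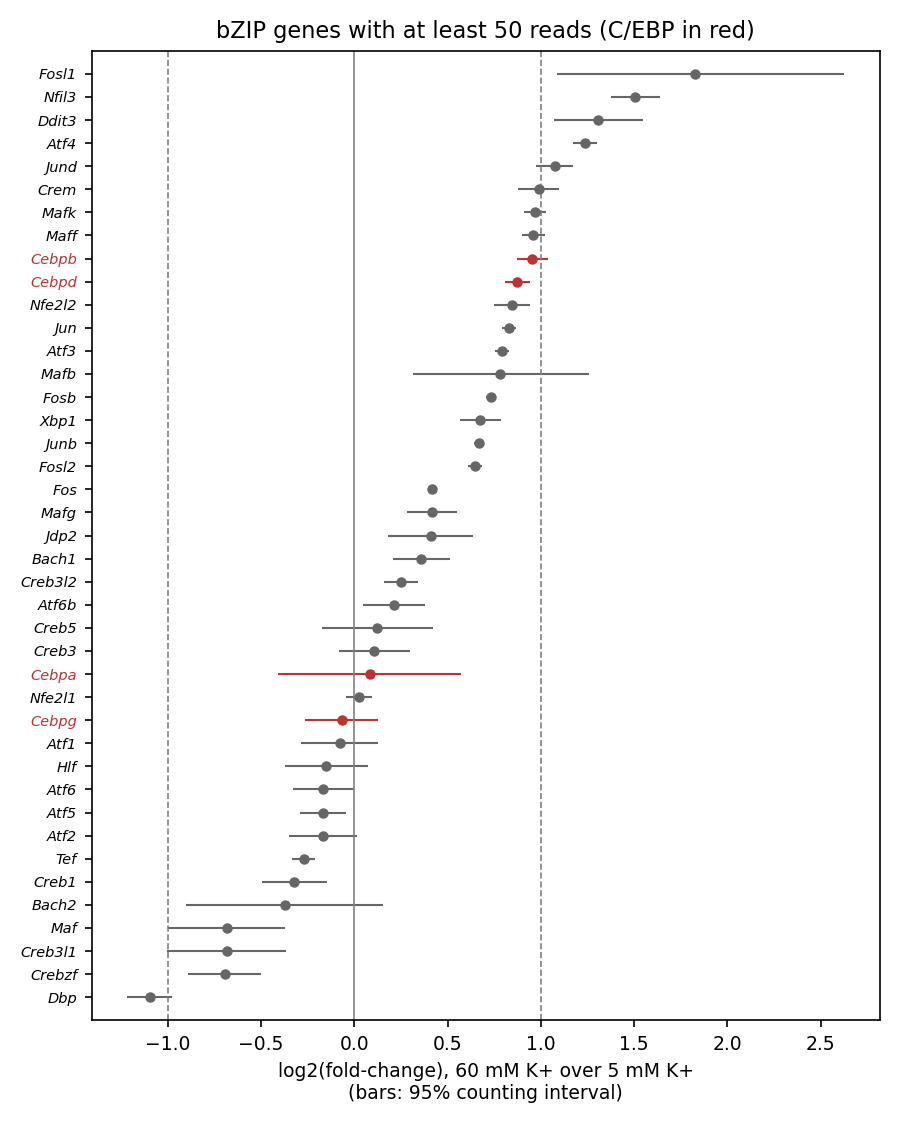
The x axis is log2(fold-change) of 60 mM K+ over 5 mM K+ with 95% counting intervals for the 41 bZIP genes with at least 50 reads, in order; C/EBP genes are red. Cebpb and Cebpd stand side by side in places 9 and 10 between Maff and Nfe2l2, and Cebpa and Cebpg stand near 0.

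C/EBP proteins pair with other bZIP proteins, and a list of 9 such partners was examined. Of 8 partners with at least 10 reads, 3 lay above 1 and 0 lay below -1, beside 5.54% and 5.86% of all tested genes. The median of the partners was 0.81. All 3 partners above 1, Atf4, Ddit3 and Batf, lay below 1 when scaled on Ppia and Hprt. Atf4, the amino acid and stress response factor that pairs with C/EBPγ and C/EBPβ, went from 2764 to 6074 reads, with log2(fold-change) at 1.24 (1.17 to 1.30); the study also listed it from these libraries. Its relative Atf5 was at -0.17. Batf had 5 and 11 reads, too few to set it apart from 0.

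Genes that feed into C/EBP expression are cytokines, their receptors and the factors that bind C/EBP promoters. Of 22 tested genes of this list, 6 lay above 1 and 0 lay below -1, beside 5.54% and 5.86% of all tested genes, and the median was 0.62. With at least 50 reads, the genes above 1 were the cytokine genes Il6 at 2.42 and Lif at 2.06, Socs3 at 1.61, which encodes the feedback inhibitor of STAT3 signals and was the most abundant of the list, and the interleukin-1 receptor gene Il1r1 at 1.09. The study also listed Il6, Lif and Socs3 from these libraries, so the list is no independent evidence of a direction. Il6 and Il1b are also in the list of inflammatory targets. Stat3, the factor that carries interleukin-6 signals to Cebpd, had 3109 and 5470 reads, with log2(fold-change) at 0.92 (0.85 to 0.98). Creb1, which encodes CREB, had 633 and 472 reads, with log2(fold-change) at -0.32 (-0.50 to -0.15). Of 18 genes whose products modify, degrade or assist C/EBP proteins, 2 lay above 1 and 0 below -1, with a median of 0.06, beside 5.54% and 5.86% of all tested genes; counts this small are not set apart from those shares. Trib1, whose product recruits a ubiquitin ligase to C/EBPα, had 749 and 1826 reads, with log2(fold-change) at 1.39 (1.26 to 1.51). Runx1, a factor that acts with C/EBP proteins in myeloid cells, had 54 and 178 reads, with log2(fold-change) at 1.82 (1.38 to 2.29). Mapk3, which encodes the kinase ERK1, was the most abundant and was at 0.10, with an interval that includes 0.

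Genes listed as inflammatory targets of C/EBP proteins were mostly higher in 60 mM K+, and listed adipocyte targets of C/EBPα were mostly lower. C/EBP sites in these genes were not searched. Of 13 tested inflammatory targets, 11 lay above 1 and 0 below -1, beside 5.54% and 5.86% of all tested genes, and the median was 2.16. The list holds 5 genes that the study named from these libraries, Il6, Cxcl1, Cxcl2, Ccl2 and Ptgs2, and is no independent evidence of a direction. The chemokine genes Cxcl1, Cxcl2 and Ccl2 were at 3.11, 2.98 and 2.98, and Csf3, a granulocyte growth factor gene with 3 and 110 reads, was at 5.30. Cxcl5 had 0 reads in control and 53 in depolarized arteries, and Il1b, with 4 and 11 reads, lay above 1 with an interval that includes 0. Ptgs2, which encodes the prostaglandin synthase COX-2, had 1465 and 3788 reads, with log2(fold-change) at 1.47 (1.38 to 1.56), and Ptx3, a pentraxin gene of innate immunity, had 59 and 245 reads (2.16, interval 1.74 to 2.59). C3, the complement gene and an abundant member, did not follow, with 2640 and 2454 reads and an interval from -0.08 to 0.08. The acute-phase genes Hp, Orm1 and Saa3 had at most 56 reads in either library, and Ccl20 had 0 reads in both.

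Of 12 adipocyte targets, 1 lay above 1 and 3 lay below -1, beside 5.54% and 5.86% of all tested genes, with a median of -0.84. A counting interval below 0 was found for 8 of 12, compared with 20.3% of all tested genes. Plin1, which coats lipid droplets, went from 101 to 18 reads, with log2(fold-change) at -2.39 (-3.20 to -1.65). Cfd (adipsin) was at -1.07, Adipoq (adiponectin) was at -1.04, and Pparg, the partner regulator of C/EBPα in fat, had only 14 and 13 reads. Slc2a4, the insulin-responsive glucose transporter gene, was the most abundant and was at 0.18. The gene above 1 was Lep, with 1 and 9 reads. The list shares Adipoq, Plin1, Cidec, Lep and Retn with the 6 adipocyte markers, so the marker list gives no separate measure of these genes. The marker outside it, Plin4, was at -0.07 and made up most of the summed marker level, 701 CPM in 5 mM K+ and 650 CPM in 60 mM K+. Cebpa itself had 73 and 72 reads beside them, and the part of adipocytes in its level was not tested. Of 14 macrophage markers, 2 had intervals above 0, 2 below 0 and 10 including 0, with log2(fold-change) from -0.78 to 0.93. Of 6 hepatocyte markers, Alb, Apoa1, Ttr, Serpina1a and Fgb had 0 reads in both libraries, and Cyp2e1 had 174 and 93 reads (-0.80, interval -1.18 to -0.43). The 8 pancreatic acinar markers summed to 11.9 CPM in 5 mM K+ and 40.9 CPM in 60 mM K+, with Prss1 and Amy2a5 at 0.

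**Figure D4:**
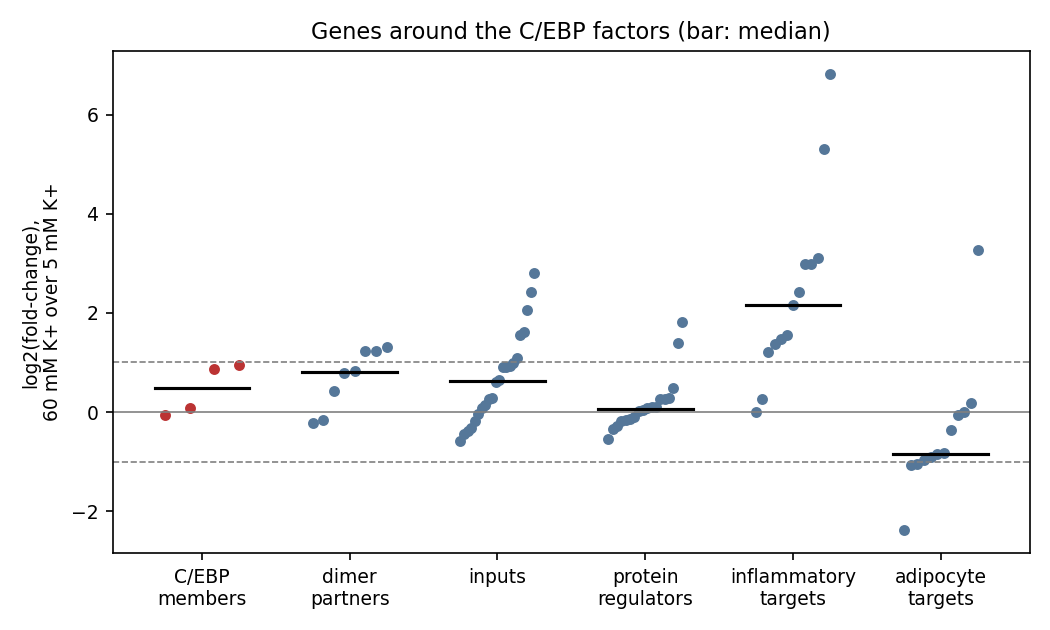
The y axis is log2(fold-change) of 60 mM K+ over 5 mM K+ for the C/EBP genes (red) and 5 lists of related genes (blue) with at least 10 reads; black bars are medians and dashed lines mark 1 and -1. The medians run from -0.84 for adipocyte targets to 2.16 for inflammatory targets, and the highest point is Cxcl5, whose 0 reads in 5 mM K+ were set to 0.5, so that its position is not a bound.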

How the data were processed

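RNA-seq libraries of mesenteric artery, 1 in 5 mM K+ and 1 in 60 mM K+, were analysed. The authors used TopHat2 for alignment to mm9, and the counts they deposited are unscaled reads on each gene. The submitters' processing notes name TopHat2 2.0.12, HTSeq 0.6.1 and edgeR 3.0.8. The annotation is not given in the sources used here, and it differed from GENCODE vM1 in the lengths of Cebpd, Cebpg and Cebpa. A gene symbol was found for 32601 of 55573 listed genes. The authors' FPKM values had been scaled with the library totals: reads per FPKM had a ratio of 1.08 between the libraries for all 17356 genes with reads in both. The symbols Adgre1 and Cop1 were found through RefSeq synonyms.

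From the counts, TMM factors came from edgeR 4.0.16 (R 4.3.3). A count of 0 was set to 0.5. Intervals are 95% Clopper-Pearson (ratios), exact Poisson (levels) and exact conditional (pairs of genes), computed with scipy 1.17.1. Those of ratios and pairs were run on simulated counts with counting error only, the model they assume. That run checks the code and cannot show how the intervals perform on these libraries. PCR reads are not independent molecules, so the intervals cover counting error only. Without replicates, no quasi-likelihood fit was made, and the study's test, which compares the reads of the 2 libraries, was used only as an alternative. The precision follows from 10480918 and 11289598 reads.

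The 4 genes and the gene lists were chosen with earlier results of these data known. Named are the C/EBP genes, the 2 bZIP genes nearest to each in log2(fold-change), and per list the genes past an absolute log2(fold-change) of 1 with at least 50 reads, up to 8, and the most abundant one, with markers at 0 reads. Stat3, Il1b, Creb1, Atf5, Batf, C3, Hp, Orm1, Saa3, Ccl20, Lep, Pparg, Plin4, Ltf, Cyp2e1, Tmem189 and the genes at the ends of figures were named after their values were seen. Alternatives were other scalings (DESeq2 1.42.0), FPKM with pseudocounts of 0.1 and 1, other minimum counts, trends with gene length and with G and C removed (lowess, statsmodels 0.14.6), stricter calls and a wider promoter window. Protein sequences and the other experiments of the study were not analysed here.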

Additional observations from a re-analysis of the deposited data

How the results depend on the processing

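No paired analysis was possible because only 1 library was made per condition. The count of C/EBP genes past the fold limit was 0 in both directions under every alternative. The direction of Cebpb and Cebpd held under every alternative. Total counts gave log2(fold-change) of 0.75 for Cebpb, 0.66 for Cebpd and -0.28 for Cebpg; scaling on Ppia and Hprt, which lowers every value by 0.49, gave 0.46, 0.38 and -0.56, and -0.41 for Cebpa. FPKM with a pseudocount of 0.1 gave 0.74, 0.66 and -0.28 for Cebpb, Cebpd and Cebpg, and with 1 it gave 0.74 and 0.66 for Cebpb and Cebpd. Removing the trend with G and C gave 0.64 for Cebpb and 0.65 for Cebpd, and differences from Cebpg of 0.63 and 0.64; the pairs were compared this way after the values were seen, as were the intervals with an assumed spread.

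The share of all genes above 1 was 5.54%. It was 14.4% with no minimum count, 3.46% with 50 reads, 2.60% with Ppia and Hprt, 3.05% with a q-value under 0.005, and 2.20%, 0.371% and 0% with assumed coefficients of variation of 0.1, 0.2 and 0.4. Below -1 it was 5.86%, and in the same order 11.7%, 1.77%, 15.6%, 1.58%, 0.283%, 0.0270% and 0%. With Ppia and Hprt, 2 bZIP genes lay above 1 and 5 below -1, 0 dimer partners lay above 1, 1 gene of the inputs lay below -1, and 1 protein regulator lay above 1 and 1 below -1. With 50 reads, 1 bZIP gene lay below -1 and 0 adipocyte targets above 1. FPKM with a pseudocount of 1 gave 3 inputs and 0 adipocyte targets above 1. Of adipocyte targets, 7 lay below -1 with total counts, with Ppia and Hprt and with FPKM and a pseudocount of 0.1. Scalings shift every gene alike, and the minimum counts, stricter calls and pseudocounts act by their construction; for the trend with G and C the cause was not tested. Of the alternatives for these results, 137 stayed within the limits and 43 moved. For list medians, shares of FPKM, promoter matches and interval ends, 40 stayed within the limits, 34 moved, and the lower interval ends of Cebpb and Cebpd dropped under 0 with the assumed coefficient of variation of 0.4.

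In the wider promoter window, 1000 bases before to 200 after the annotated start, Cebpb again held 3 short CRE motifs and Cebpa and Cebpg held 0, where 46.3% of 22380 windows hold at least 1. NF-kB type matches went from 1 to 3 in Cebpb and from 0 to 1 in Cebpa, STAT type matches from 0 to 1 in Cebpa and Cebpg, and C/EBP type matches from 0 to 1 in Cebpg. Such matches are common at this width: 50.4% of windows hold at least 1 NF-kB type match, 31% a STAT type and 38.5% a C/EBP type match.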
